A study of Capra hircus with 9 samples.

Results

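Fatty acid uptake and intracellular transport genes were examined in goat mammary gland RNA-seq data. The 10 genes were chosen by symbol (LPL, GPIHBP1, VLDLR, OLR1, CD36, SLC27A6, ACSL1, FABP3, FABP5 and DBI), and all 10 were present among the 23499 genes of the deposited table. Each of the 9 libraries came from a different healthy goat of the Laoshan dairy breed of China, and the tissue was collected at slaughter. Late lactation (LL) was sampled on day 240 postpartum in 3 goats, the dry period (DP) on day 300 postpartum in 3 goats, and late gestation (LG) on day 140 after mating in 3 goats. The comparisons ask how expression of these genes differed between a gland that was secreting milk, one that had stopped and one that was close to the next kidding.

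The mammary gland takes part of its milk fat from the blood. Lipoprotein lipase, held on the capillary wall by its anchor protein, frees fatty acids from circulating triacylglycerol, and receptors and membrane proteins carry lipids into the cell. Acyl-CoA synthetases then activate the fatty acids, and small cytosolic binding proteins carry the acids and their CoA esters to the sites of triacylglycerol synthesis.

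The deposited values were read as FPKM, a length-normalized measure. Each library was divided by a median-ratio scaling factor, which ranged from 0.498 to 0.605 in LL, from 1.44 to 1.53 in DP and from 1.198 to 1.31 in LG, and the result is called scaled FPKM below. Left unscaled, the median log2 difference over all tested genes was 1.09 for DP against LL, 0.93 for LG against LL and -0.18 for LG against DP. Log2 fold changes (log2FC ± SE) are on the log2(scaled FPKM + 1) scale, which understates changes of weakly expressed genes. A gene was called different at a limma Benjamini-Hochberg adjusted p under 0.05 with a log2FC of at least 1 in size. How many reads lie behind a value cannot be read from the deposited table, because FPKM carry no read count.

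Of the 10 genes, 9 had at least 0.5 FPKM in at least 3 libraries and were tested. SLC27A6 was not, and GPIHBP1 and OLR1 passed in 4 libraries each, so that GPIHBP1 entered the test mainly through LG and OLR1 mainly through LL. In DP against LL, 6 of the 9 tested genes were called lower (LPL, OLR1, CD36, ACSL1, FABP3 and DBI), beside 8.79% of all 14701 genes tested. None was called higher by limma, beside 13.8% of all genes, and 0 were higher at an unadjusted p under 0.05. In LG against LL, 6 were called lower (LPL, OLR1, ACSL1, FABP3, FABP5 and DBI), beside 6.61% of all genes, and none higher, beside 10.7% (4 lower and 2 higher without scaling), with 1 higher at an unadjusted p under 0.05 (GPIHBP1). In LG against DP, 3 were called higher (LPL, CD36 and FABP3), beside 6.37% of all genes, and none lower, beside 6.88%, with 1 lower at an unadjusted p under 0.05 (FABP5). The median log2FC of the 9 genes was -2.96 for DP against LL, -2.08 for LG against LL and 0.88 for LG against DP, beside 0.0041, 0.0194 and 0.0083 over all genes tested. The values of CD36 are tied to a neighbour, as described below. Without CD36, 8 genes were tested, and their medians were -2.48, -2.21 and 0.82 in the same order. Of these 8, 5 were called lower in DP against LL, 6 lower in LG against LL and 2 higher in LG against DP. By adjusted p alone, 6 of the 9 genes passed when DP was set against LL (56.9% of all genes), 8 when LG was set against LL (50.2%) and 5 when LG was set against DP (34.8%). The moderated F test over the 3 stages was passed by 8 of the 9 genes, all except VLDLR, beside 70.0% of all genes. All 9 passed with a replicate block, without scaling or without LG replicate 1, and 7 passed without LG replicate 2 or without LG replicate 3. These comparisons share libraries and are not independent of each other.

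**Figure D1:**
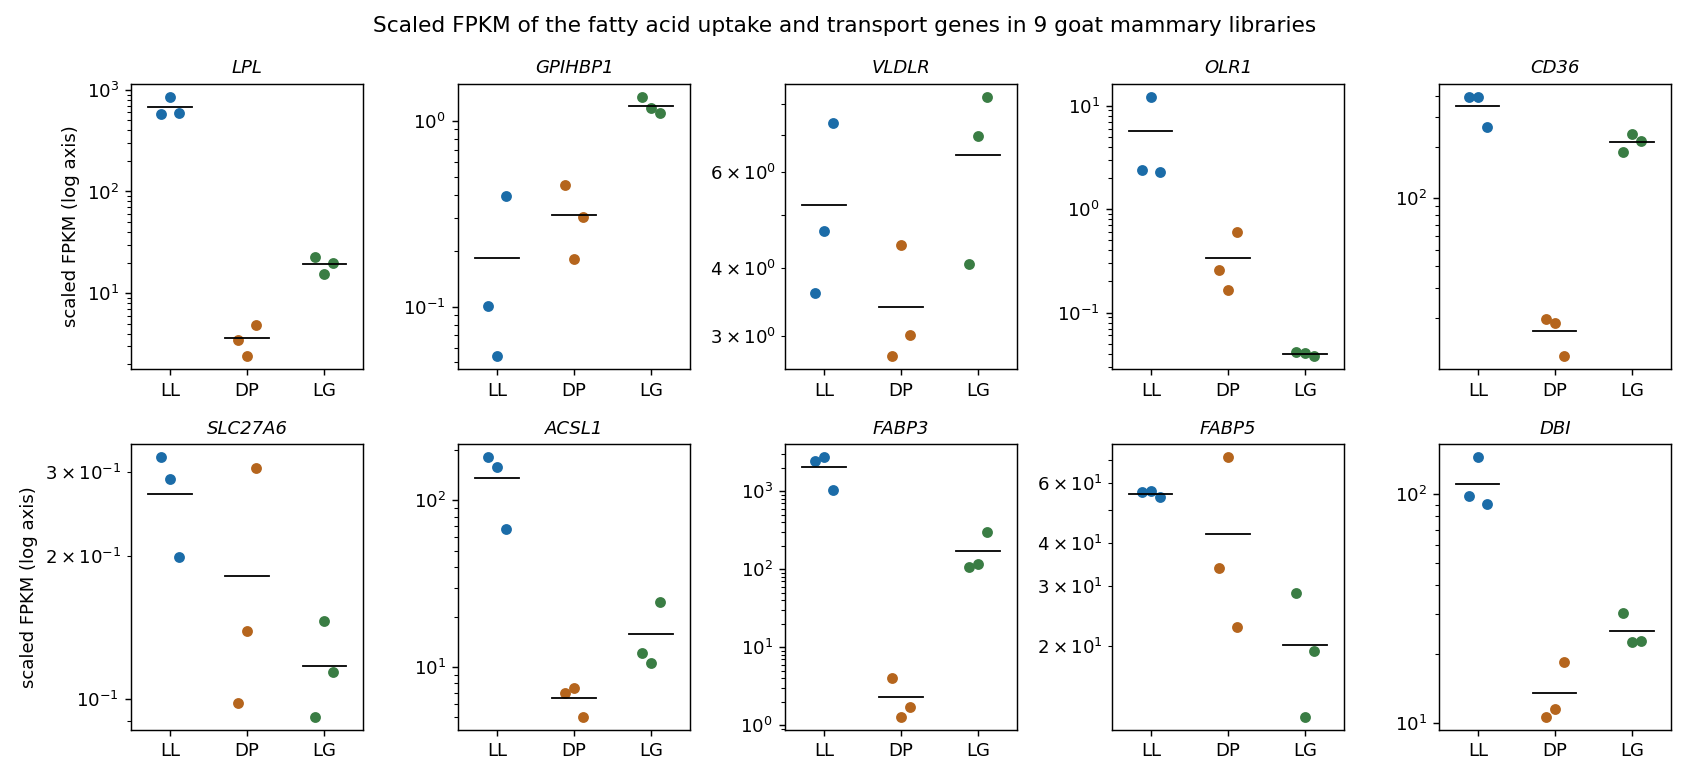
Scaled FPKM (log axis, a separate range for each gene) of the 10 genes in each library of LL, DP and LG; points are the 3 libraries of a stage and lines are their means. LPL ran from 578 to 859 in LL and from 2.41 to 4.86 in DP, while GPIHBP1 was highest in LG, at 1.103 to 1.35.

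LPL (gene ID 100860750; chromosome 8, 66597910 to 66623251, plus strand) encodes the lipase that releases fatty acids from lipoproteins. Its scaled FPKM was 578, 859 and 598 in the LL libraries, 3.47, 2.41 and 4.86 in DP and, in LG, 22.7, 15.3 and 19.6. The 3 stages did not overlap, and LG lay between DP and LL but much nearer to DP. LPL fell in DP against LL (log2FC -7.22 ± 0.24, adjusted p = 9.91e-08) and was higher in LG than in DP (2.16 ± 0.24, adjusted p = 0.000256), while LG stayed below LL (-5.07 ± 0.24, adjusted p = 1.62e-06).

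GPIHBP1 (gene ID 102186610; chromosome 14, 80699197 to 80701779, plus strand) encodes the capillary protein that anchors the lipase. It was weakly expressed, with scaled FPKM of 0.1005, 0.0542 and 0.396 in LL, 0.452, 0.1804 and 0.306 in DP and, in LG, 1.35, 1.17 and 1.103. All 3 LG libraries lay above every LL and DP library, and LL overlapped DP. LG against LL gave a log2FC of 0.91 ± 0.15 (adjusted p = 0.00115) and LG against DP gave 0.75 ± 0.15 (adjusted p = 0.00467), so that both passed the adjusted p and missed the size threshold. With a pseudocount of 0.1 both were called (2.39 and 1.71), and LG against LL was also called without LL replicate 3 (1.07) and without scaling (1.18). Under quantile normalization LG against LL did not pass the adjusted p (0.546, adjusted p = 0.0636). In DP against LL the log2FC was 0.16 ± 0.15 and turned to -0.23 under quantile normalization.

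The log2 ratio of LPL to GPIHBP1 within a library, with 1 added to each deposited FPKM, was 8.38 ± 0.41 (SD, n = 3) in LL, 2.07 ± 0.35 in DP and 3.30 ± 0.24 in LG. GPIHBP1 was at or below 0.69 FPKM in LL and DP, so with 1 added this ratio largely repeats the level of LPL and says little about the balance of the 2 genes. Stages differed in this ratio (exact permutation test over 280 partitions, one-sided, p = 0.00357, the smallest these partitions can give; adjusted p = 0.00476 over 4 ratios, exact).

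VLDLR (gene ID 102177522; chromosome 8, 41671685 to 41706988, minus strand) encodes a receptor that binds triacylglycerol-rich lipoproteins. Its scaled FPKM was 3.60, 4.66 and 7.37 in LL, 2.76, 4.40 and 3.02 in DP and, in LG, 4.06, 6.99 and 8.25. Every pair of stages overlapped, and none of the 3 comparisons was called. DP against LL gave a log2FC of -0.47 ± 0.27 (adjusted p = 0.162), LG against LL gave 0.26 ± 0.27 (adjusted p = 0.455) and LG against DP gave 0.73 ± 0.27 (adjusted p = 0.0633). Without scaling, the DP against LL value turned to 0.63 and LG against LL was called (adjusted p = 0.00382).

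OLR1 (gene ID 102185442; chromosome 5, 98248786 to 98260339, plus strand) encodes a scavenger receptor for oxidized lipoproteins. Its scaled FPKM was 2.37, 12.2 and 2.28 in LL, 0.255, 0.1665 and 0.598 in DP and, in LG, 0.0418, 0.0405 and 0.0381. The stages did not overlap, the LL mean rested largely on replicate 2, and the deposited value was 0.05 in each LG library. OLR1 fell from LL to DP (log2FC -1.99 ± 0.45, adjusted p = 0.00463) and from LL to LG (-2.34 ± 0.45, adjusted p = 0.00232), and without LL replicate 2 both were still called, at -1.39 and -1.76. LG against DP was not called (-0.35 ± 0.45, adjusted p = 0.578).

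CD36 (gene ID 100860958; chromosome 4, 79810715 to 79909365, plus strand) encodes the fatty acid translocase of the cell membrane and of the milk fat globule membrane. Its values are not a separate measurement in this table. The next gene on the same strand, LOC100860959 (79948195 to 79988091), had deposited FPKM of 196.47, 215.87 and 158.59 in the LL libraries. Its DP values were 30.17, 26.98 and 17.21, and all 6 values were 0.01 below those of CD36. In LG it had 125.46, 92.33 and 83.17, while CD36 had 225.47, 292.34 and 283.18. The difference in LG was therefore 100.01, 200.01 and 200.01, a round amount above the 0.01 of the other 6 libraries. A further gene, LOC108633303 (80006700 to 80082285), lay 1.37 to 1.87 FPKM below CD36 in LL and DP, a tie only once fixed amounts are allowed for, and followed LOC100860959 and not CD36 in LG (123.60, 90.77 and 81.81). Over the table, 1076 pairs of nearby same-strand genes kept one difference in at least 5 libraries, and 5 of these pairs departed from it by more than 5 FPKM in some library, 2 of them pairs of CD36. Another, SLC2A1 with its neighbour LOC102183480, also departed by round amounts in the 3 LG libraries alone (30, 30 and 20), while DNAAF2 with RPL36AL (by 100000) and UXT with LOC102174466 (by up to 7) departed in LL and DP libraries. The origin of the round amounts was not tested.

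**Figure D2:**
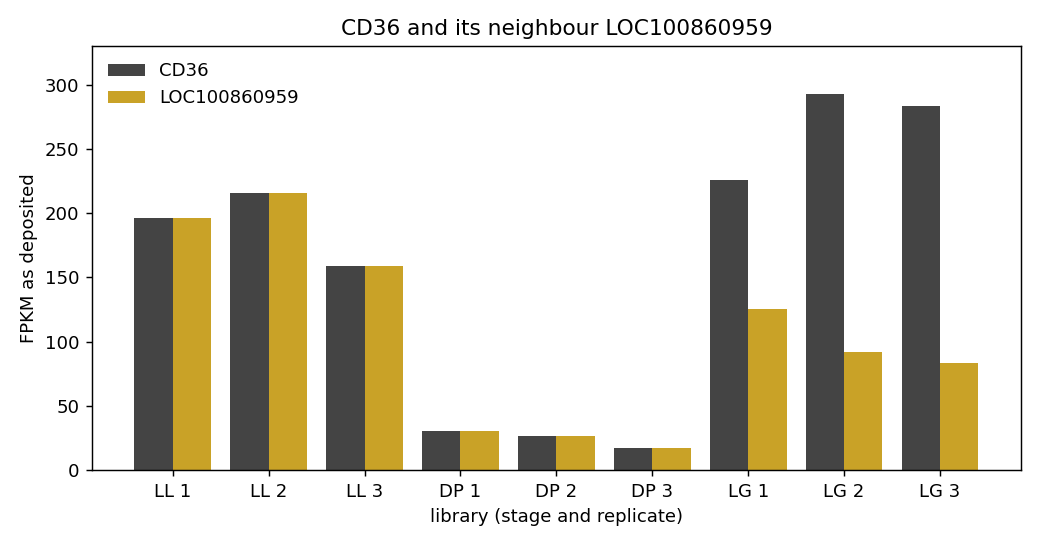
Deposited FPKM of CD36 (dark bars) and of its same-strand neighbour LOC100860959 (light bars) in each library. The bars match to 0.01 FPKM in the 6 LL and DP libraries, and CD36 exceeds its neighbour by 100.01, 200.01 and 200.01 in LG.

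The scaled FPKM of CD36 was 395, 390.2 and 262 in LL and 19.8, 18.7 and 12.0 in DP, without overlap, and it fell in DP against LL (log2FC -4.30 ± 0.23, adjusted p = 1.98e-06). That log2FC does not involve the LG values, but its SE is pooled over all 9 libraries. In a fit of the 6 LL and DP libraries alone, it was -4.29 (adjusted p = 6.08e-05). As deposited, LG had scaled values of 188, 237 and 216, with a log2FC of -0.69 ± 0.23 against LL (adjusted p = 0.034), which was not called and turned to 0.49 without scaling, and of 3.61 ± 0.23 against DP (adjusted p = 1.88e-05). With the round amounts taken off, an alternative chosen after the values were seen, the LG values were 125.47, 92.34 and 83.18 FPKM. LG against LL was then called lower (-2.10, adjusted p = 0.000212), and LG against DP was 2.20 (adjusted p = 0.00032). CD36 was thus above DP in LG either way, and its level relative to LL in LG rested on the round amounts.

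SLC27A6 (gene ID 102184423; chromosome 7, 85486014 to 85558024, plus strand) encodes a fatty acid transport protein. It stayed at or below 0.44 FPKM in all 9 libraries, with deposited values of 0.16, 0.16 and 0.12 for LL, 0.15, 0.20 and 0.44 for DP, and 0.11, 0.18 and 0.15 for LG. It was therefore not tested, and DP overlapped both other stages. In a fit with no filter it was not called, with a log2FC of -0.11 (DP against LL), -0.18 (LG against LL) and -0.08 (LG against DP).

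Of the other genes of the family, SLC27A2 was also low, at or below 0.96 FPKM and not tested, while SLC27A1, SLC27A3, SLC27A4 and SLC27A5 were higher, the last 3 with values of an unusual form. SLC27A4 had 322.38, 322.81 and 312.70 FPKM in LL, 53.68, 53.32 and 53.86 in DP and, in LG, 622.23, 592.24 and 612.55. What remained above the nearest lower multiple of 10 lay between 2.23 and 3.86 FPKM in all 9 libraries. The same remainder was 0.45 to 3.03 in SLC27A3 and 1.08 to 4.57 in SLC27A5. Of 971 genes with every value at least 10 FPKM and a range of at least 30, 4 had remainders within a span of 3.5 FPKM (counted across multiples of 10), namely these 3 and TM4SF1. This cut was set after the values were seen, and for uniform remainders 1.97 genes would be expected within it, so the count alone shows little. None of the 10 members that reached this level (CD36, DBI and FABP5) did. The origin of the pattern was not tested. SLC27A1, without such a pattern, had 31.06, 41.54 and 31.86 FPKM in LL, 7.32, 4.64 and 4.05 in DP and, in LG, 68.29, 79.85 and 77.35.

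ACSL1 (gene ID 102177866; chromosome 27, 30312404 to 30377968, plus strand) encodes a long-chain acyl-CoA synthetase. Its scaled FPKM was 181, 158 and 67.5 in LL, 6.94, 7.44 and 5.03 in DP and, in LG, 12.1, 10.6 and 24.5. The stages did not overlap, and LL replicate 3 was the lowest LL library and LG replicate 3 the highest LG library. ACSL1 was lower in DP than in LL (log2FC -4.09 ± 0.39, adjusted p = 3.37e-05) and lower in LG than in LL (-3.00 ± 0.39, adjusted p = 0.000282). LG against DP lay at the threshold (1.09 ± 0.39, adjusted p = 0.0568) and was called with a pseudocount of 0.1 (1.19), with only the 6 libraries of these stages (1.14) and without LL replicate 3 (1.10, adjusted p = 0.0208), but fell to 0.735 (adjusted p = 0.187) without LG replicate 3. The log2 ratio of ACSL1 to the summed ACSL3, ACSL4, ACSL5 and ACSL6 was 1.72 ± 0.86 (SD, n = 3) in LL, -2.56 ± 0.52 in DP and -0.82 ± 0.39 in LG. ACSL1 thus exceeded the other 4 genes together in each LL library and in no DP or LG library, and the stages differed (exact permutation p = 0.00357, adjusted p = 0.00476).

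FABP3 (gene ID 100860846; chromosome 2, 13664760 to 13673332, minus strand) encodes the heart-type fatty acid-binding protein, the main such protein of lactating ruminant gland. It had the highest LL level of the 10 genes, with scaled FPKM of 2443, 2722 and 1053 in LL, 3.99, 1.29 and 1.72 in DP and, in LG, 106, 116 and 301. The stages did not overlap. FABP3 fell in DP against LL (log2FC -9.25 ± 0.49, adjusted p = 1.69e-06), the largest change among the tested members, was higher in LG than in DP (5.63 ± 0.49, adjusted p = 7.57e-05) and stayed lower in LG than in LL (-3.62 ± 0.49, adjusted p = 0.00033). Its end overlaps the opposite-strand gene LOC108637396 (13672284 to 13675741), which had 29.50 to 39.39 FPKM for LL, 5.96 to 8.14 for DP and 10.65 to 17.27 for LG. These values are themselves tied to those of its neighbour SERINC2, 1.0 to 1.5 FPKM lower in every library, and so are not a separate measurement. The library kit does not mark strand, so reads from the shared stretch cannot be told apart.

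FABP5 (gene ID 102180059; chromosome 14, 37555681 to 37561958, minus strand) encodes the epidermal-type binding protein. Its scaled FPKM was 56.5, 56.7 and 54.4 in LL, 33.8, 71.3 and 22.6 in DP and, in LG, 28.6, 12.4 and 19.3. DP spanned both sides of LL and overlapped LG, while every LG library lay below every LL library. FABP5 fell in LG against LL (log2FC -1.50 ± 0.39, adjusted p = 0.0103), a call that was lost without scaling (-0.36, adjusted p = 0.417) and under quantile normalization (-1.21, adjusted p = 0.0558). DP against LL was not called (-0.54 ± 0.39, adjusted p = 0.255) and turned to 0.84 without scaling and 0.085 under quantile normalization. It was -0.987 (adjusted p = 0.0277) without DP replicate 2 and -0.180 without DP replicate 3. LG against DP was not called (-0.96 ± 0.39, adjusted p = 0.084), and was called without DP replicate 3 (-1.32, adjusted p = 0.0237) and without scaling (-1.20, adjusted p = 0.0337).

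The log2 ratio of FABP3 to FABP5 changed sign between stages. It was 5.39, 5.54 and 4.23 in the LL libraries, -2.89, -5.18 and -3.27 in DP and, in LG, 1.86, 3.14 and 3.91. FABP3 was thus the more abundant of the pair in every LL and LG library and FABP5 in every DP library. The stages differed in this ratio (exact permutation p = 0.00357, adjusted p = 0.00476).

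DBI (gene ID 102182266; chromosome 2, 64935652 to 64940898, minus strand) encodes the acyl-CoA-binding protein. Its scaled FPKM was 98.1, 145 and 91.1 in LL, 10.6, 11.5 and 18.4 in DP and, in LG, 30.3, 22.6 and 22.8. The stages did not overlap, and LG lay between DP and LL. DBI was lower in DP than in LL (log2FC -2.96 ± 0.25, adjusted p = 1.55e-05) and in LG than in LL (-2.08 ± 0.25, adjusted p = 0.000158), where the size threshold was missed without scaling (-0.92, adjusted p = 0.00566). LG against DP passed the adjusted p and not the size threshold (0.88 ± 0.25, adjusted p = 0.0215), and was called without DP replicate 3 (1.11). DBI overlaps the opposite-strand gene C2H2orf76, which had 2.73 to 3.57 FPKM for LL, 2.94 to 4.23 for DP and 5.39 to 8.71 for LG.

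**Figure D3:**
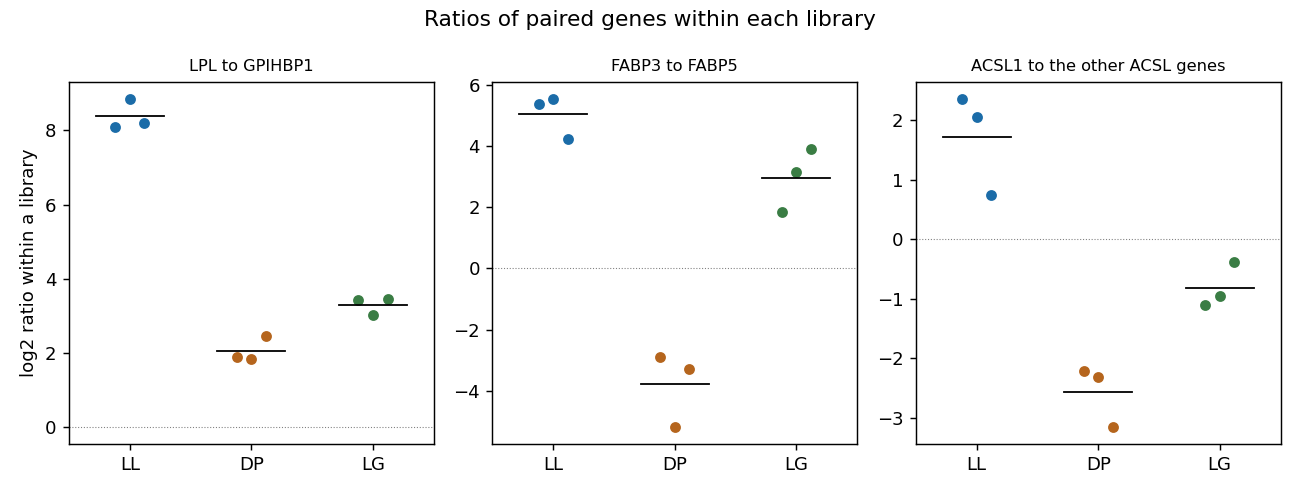
Log2 ratios within each library (deposited FPKM + 1) of LPL to GPIHBP1, FABP3 to FABP5 and ACSL1 to the summed ACSL3, ACSL4, ACSL5 and ACSL6; points are libraries, lines are stage means and the dotted line marks equal levels. The mean ratio of FABP3 to FABP5 was 5.05 in LL, -3.78 in DP and 2.97 in LG.

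Of 60 other genes of fatty acid handling in 6 lists, 56 were found under their symbols and 42 were tested. In DP against LL, 13 were called lower (31.0%, beside 8.79% of all genes) and 4 higher (9.52%, beside 13.8%), while without scaling 6 were lower and 17 higher. The largest decreases were in SLC27A5 (log2FC -4.44 ± 0.14), SLC27A4 (-3.95 ± 0.15) and SLC27A1 (-3.81 ± 0.19), and the largest increases in FABP7, a brain-type binding protein gene (2.24 ± 0.57), APOE, an apolipoprotein gene (1.98 ± 0.51), and LRP1, a lipoprotein receptor gene (1.71 ± 0.35). With the multiples of 10 taken off SLC27A3, SLC27A4 and SLC27A5, SLC27A4 (-0.74, adjusted p = 0.000251), SLC27A5 (-0.86, adjusted p = 0.0403) and SLC27A3 were no longer called and 10 genes were lower. By list, 5 of 8 tested membrane transport genes were called lower (3 of them SLC27A3, SLC27A4 and SLC27A5), as were 3 of 9 regulators and 2 of 5 receptors. Of the other lists, 2 of 10 lipase partners and inhibitors, 1 of 6 intracellular carriers and none of 4 acyl-CoA synthetases were called lower. Called higher were 2 lipase partners and inhibitors, 1 receptor and 1 carrier, so the calls in those lists went both ways. No membrane transport gene or regulator was called higher. FABP7 was no longer called under quantile normalization (1.76, adjusted p = 0.0509) and rested largely on DP replicate 2 (23.30 FPKM, beside 6.77 and 1.86 in the other DP libraries), without which it was 1.44 in DP against LL and -1.39 in LG against DP. Of the 4 libraries in which it passed the filter, 3 were DP.

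In LG against LL, 4 of the 42 genes were called lower (9.52%, beside 6.61% of all genes) and 2 higher (4.76%, beside 10.7%), while without scaling 1 was lower and 18 higher. INSIG1, a regulator of sterol synthesis (log2FC -2.50 ± 0.42), LRP8, a receptor gene (-1.47 ± 0.15), and ACBD5, an acyl-CoA-binding protein gene (-1.12 ± 0.23), had the largest decreases. LIPG, the endothelial lipase gene (1.98 ± 0.41), and PCSK6, a protease gene (1.28 ± 0.29), were higher. Of these, LRP8 (-0.83) and ACBD5 (-0.17) were not called without scaling, ACBD5 was not called without LL replicate 3 or without LG replicate 3 (-0.996 each), and PCSK6 was not called under quantile normalization (0.90). With the multiples of 10 taken off SLC27A3, SLC27A4 and SLC27A5, 5 of the 42 genes were called lower and 2 higher in this comparison.

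In LG against DP, 6 of the 42 genes were called higher (14.3%, beside 6.37% of all genes) and 4 lower (9.52%, beside 6.88%), and without scaling 6 were higher and 6 lower. SLC27A5 (log2FC 4.81 ± 0.14), SLC27A3 (3.95 ± 0.22) and SLC27A1 (3.75 ± 0.19) had the largest increases, but with the multiples of 10 taken off SLC27A5 had 0.16 (adjusted p = 0.731), SLC27A3 had 0.20 (adjusted p = 0.316) and 3 genes were higher. Losing calls in this way, here and in DP against LL, follows from the narrow span of the remainders by which the genes were picked, and is no separate test. FABP7 (-2.19 ± 0.57), LRP1 (-1.73 ± 0.35) and the scavenger receptor gene MSR1 (-1.53 ± 0.21) fell most, and FABP7 was not called without LG replicate 3 (-2.05, adjusted p = 0.0521). FABP4 was not found under that symbol. RefSeq gives the synonym A-FABP for LOC100861279, whose scaled FPKM was 304, 275 and 210.5 in LL, 142, 188 and 26.3 in DP and, in LG, 318, 142 and 268, and which was not called in any comparison.

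The genes with patterns most like each member were found by the root mean square (RMS) difference of log2 values centred on the mean of the 9 libraries. For LPL they included ATP2C2 (0.473) and C3H2orf82 (0.534), and for FABP3 PAEP (0.812), SCD (1.12) and BTN1A1 (1.18). CD36 as deposited was nearest to SLC1A2 (0.223), SLC2A8 (0.232) and ELF5 (0.275), ACSL1 to SLC39A8 (0.343), GPAT4 (0.386) and AHCYL2 (0.388), and DBI to BPIFB1 (0.274), DHCR7 (0.281) and C16H1orf105 (0.300). GPIHBP1 was nearest to SLC5A10 (0.103), MKI67 (0.104) and AURKA (0.108), all at low FPKM. VLDLR was nearest to PELI2 (0.189), MSS51 (0.206) and LRWD1 (0.219), OLR1 to RASD1 (0.267), BCL2L15 (0.329) and TEX11 (0.358), and FABP5 to PRR16 (0.346), GBE1 (0.376) and MTUS1 (0.392).

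Markers of the cell types of the gland were read beside these genes, since in tissue libraries fewer cells of a type and less RNA per cell cannot be told apart. The 8 markers of secretory and luminal epithelium summed to 265246, 238406 and 164436 scaled FPKM in LL, 293, 537 and 370.1 in DP and, in LG, 4897, 6029 and 4733. The most abundant was CSN2 in LL and LG and KRT19 in DP. CSN2 (log2FC -12.97), LALBA (-13.41) and ELF5 (-4.19) were called lower in DP against LL, while KRT8, KRT18, KRT19, EPCAM and CDH1 were not called in any comparison. Some of these passed the adjusted p but not the size threshold. In DP against LL these were EPCAM (-0.74, adjusted p = 0.0257) and CDH1 (-0.48, adjusted p = 0.0311). In LG against DP they were EPCAM (0.80, adjusted p = 0.0296) and KRT18 (-0.89, adjusted p = 0.0239). KRT8 and KRT19 passed in no comparison. By mean scaled FPKM, LPL, FABP3, ACSL1, DBI and CD36 had the same order of stages as CSN2, LL above LG above DP. LG against DP was not called for ACSL1 or DBI. For CD36 as deposited, LG against LL was not called and its direction turned without scaling. The part of cell number in this order was not tested.

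The 10 endothelial markers summed to 128, 128 and 156 scaled FPKM in LL, 155, 166 and 235 in DP and, in LG, 77.0, 109 and 104, with PECAM1, itself tied to a neighbour, the most abundant. This sum was lowest in LG, but without scaling it was lowest in LL (63.81, 70.66 and 94.55 FPKM, beside 92.24, 134.40 and 136.98 in LG), so the order rests on the scaling. TEK and CLDN5 were called lower in LG against DP. Single markers differed. The mean of KDR was highest in LG (11.5 scaled FPKM, beside 6.75 in LL and 8.94 in DP), with LG against LL at 0.70 (adjusted p = 0.00556). That of ESAM was barely highest in LG (2.63, beside 2.28 and 2.59), and those of EMCN and ERG were above LL in LG. The means of PECAM1, CDH5, VWF, TEK, TIE1 and CLDN5 were below LL in LG. Of these, PECAM1 (-0.91, adjusted p = 0.00553), CLDN5 (-0.98, adjusted p = 0.0227) and TEK (-0.55, adjusted p = 0.0496) passed the adjusted p. No endothelial marker was called in LG against LL. Of 10 macrophage markers, 9 were found and 8 tested, and their sum was 114, 83.9 and 89.1 in LL, 212, 211 and 243 in DP and, in LG, 92.9, 86.5 and 81.5, with C1QA the most abundant and MARCO at 0 in 5 libraries. In DP against LL 5 were called higher, while OLR1, which macrophages can also express, was lower. All 8 tested macrophage markers were lower in LG against DP. The part of these cells in the results was not tested.

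Of 8 adipocyte markers, 7 were found, all but FABP4. These 7 summed to 19.3, 23.2 and 30.6 scaled FPKM in LL, 33.4, 16.9 and 13.6 in DP and, in LG, 6.79, 12.4 and 12.9. PNPLA2 was the most abundant of the 7 on average. LOC100861279, with the synonym A-FABP, is not in these sums. Its mean scaled FPKM was 263 in LL, 119 in DP and 243 in LG, above the sum of the 7 in every library. It was not called in any comparison. LIPE was called lower in DP against LL (log2FC -1.49, adjusted p = 0.00574) and in LG against LL (-1.14, adjusted p = 0.0217). PNPLA2 was called lower in LG against LL (-1.13, adjusted p = 0.00921). ADIPOQ had 19.32 FPKM in DP replicate 1 and at most 1.72 in any other library, and LEP was at 0 in 5 libraries. LPL and CD36, which adipocytes also express, had 3.47 and 19.8 scaled FPKM in that library. The 6 myoepithelial markers found of 7 summed to 180.0, 234 and 231 in LL, 136, 453 and 347 in DP and, in LG, 225, 269.8 and 304, with KRT5 the most abundant on average. KRT5 and KRT14 are each tied to a neighbour. TP63 was called higher in DP against LL (log2FC 1.47, adjusted p = 1.84e-05) and in LG against LL (1.60, adjusted p = 1.74e-05). OXTR was called higher in LG against LL (2.11, adjusted p = 0.000101) and in LG against DP (1.41, adjusted p = 0.00168). The 7 striated muscle markers found of 8 summed to 5.77, 5.71 and 10.8 in LL, 9.10, 8.81 and 75.0 in DP and, in LG, 3.32, 3.49 and 4.06, led by DES, with MYL2 at 0 in all libraries. DES made up 73.8 of the 75.0 in DP replicate 3, where no other striated muscle marker was above 1.06 (TNNT3) and the myoepithelial list's ACTA2 (140.8) and MYH11 (56.4), which smooth muscle also expresses, were at their highest too.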

How the data were processed

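Mammary tissue of 9 goats was sequenced with an unstranded TruSeq kit, and the submitters' notes name FastQC, Trimmomatic, HISAT2, SAMtools and HTSeq. The table that the authors deposited holds 1 value per gene and library, names no unit and was read as FPKM, since the study's results name that measure for transcripts and the values carry decimals and sum to different totals. How transcript values became gene values is not given in the sources used here. The table names no build; all 23465 gene identifiers found in RefSeq had the start and end of ARS1.2.

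Values were divided by median-ratio factors from 15905 genes above 0 in every library, and log2(value + 1) was fitted over all 9 libraries without covariates in limma (version 3.58.1, R version 4.3.3; eBayes with trend). Genes had to reach 0.5 FPKM in 3 libraries or more, which left 14701. Adjusted p-values are Benjamini-Hochberg over all these genes. The fit and the search for tied genes were tested on simulated data. For the fit, changes were placed only in well-expressed genes of limited spread. It therefore says nothing about weakly expressed members such as GPIHBP1 and OLR1. Ratios were tested by exact permutation in Python (version 3.11.15) using numpy (version 2.4.6), with tables in pandas (version 2.3.3). Genes tied to a neighbour kept one difference, with or without fixed amounts of 1.0 to 1.5 FPKM, within 0.015 FPKM in at least 5 libraries, up to 8 places apart.

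The members and lists were chosen with earlier results of these data known. All members are named, with up to 3 called genes of the 6 other lists with the largest change in each direction and comparison, genes in ratios, the 3 genes most like each tested member (symbols not starting with LOC and not tied to a neighbour) and marker genes. Of these, 1 of the 4 ratios and 1 gene most like a member are not reported here. Genes singled out beyond this were chosen after their values were seen. Alternatives covered the scaling, the pseudocount, the filter, the libraries in the fit, a replicate block, the trend, each library left out and adjusted p alone. Added after the values were seen were CD36 without its round amounts, SLC27A3, SLC27A4 and SLC27A5 without the multiples of 10, and all genes without the tied ones. Promoter and protein sequences were not used here.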

Additional observations from a re-analysis of the deposited data

How the results depend on the processing

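Of 453 recomputed log2 fold changes of the tested members, 433 kept their direction and side of the threshold. Without scaling, LL against DP and LG changed most: 8348 genes were called in DP against LL (95.6% of them higher, beside 61.1% with scaling), 7043 in LG against LL (95.1%, beside 61.8%) and 31.2% of calls in LG against DP were higher, beside 48.1%; other fatty acid handling genes called in LG against LL were then 19, of which 18 were higher. Without scaling, the sign turned for VLDLR (0.635) and FABP5 (0.840) in DP against LL and for CD36 in LG against LL (0.489). Under quantile normalization it turned for GPIHBP1 (-0.232) and FABP5 (0.085) in DP against LL. A pseudocount of 0.1 gave 3912 genes in LG against LL and 5 members in LG against DP. By adjusted p alone, the calls were 8359, 7383 and 5112 for all genes and 29, 17 and 18 for the other fatty acid handling genes in DP against LL, LG against LL and LG against DP, and 5 members in LG against DP. With single libraries left out, members called in LG against DP were 3 to 5. The causes were not tested. Each library came from a different goat, so the main fit used no pairing. Same-numbered libraries did not deviate together in every pair (correlations of -0.106 to 0.201). With the replicate block, 6, 6 and 3 members and 3340, 2564 and 1986 genes were called, and the F test was passed by 9 members. Counting error could not be set, since the deposited values carry no read counts. At a filter of 2 FPKM, GPIHBP1 and OLR1 were not tested, nor, with only 6 libraries, GPIHBP1 in DP against LL and OLR1 in LG against DP.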
